A study of Mus musculus with 8 samples.

Results

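Open chromatin of mouse embryonic fibroblasts (MEFs) was compared with that of mouse embryonic stem cells (ESCs), the starting cell type of reprogramming and the pluripotent state it aims at. Of the 8 ATAC-seq libraries of the series, 4 belonged to these groups, 2 MEF and 2 ESC libraries, and each group had 1 deposited peak list. ATAC-seq uses a transposase that inserts sequencing adapters into accessible DNA, so a peak marks a stretch where many insertions were recovered. A site was defined as a set of MEF and ESC peaks joined by at least 1 bp of overlap, and was called MEF-only, ESC-only or shared by the lists it held. The 56514 MEF peaks and 48486 ESC peaks formed 86041 sites, of which 37672 were MEF-only, 29537 ESC-only and 18832 shared. Both lists held peaks down to a −log10 q of 1.01, so weak calls are included. MEF-only and ESC-only mean that the other list had no peak there, not that the site was closed.

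Both groups were unmanipulated and wild type, with no transfection, overexpression or knockout. The MEFs were a mixed culture derived from midgestation embryos, grown in DMEM with fetal bovine serum. Their strain label was C57BL/6J-OG2, as for ESC replicate 2, whereas ESC replicate 1 was labelled C57Bl6J. The methods, in contrast, call the ESCs of the ATAC-seq OG2 without exception. OG2 animals carry a GFP reporter driven by Pou5f1 sequence, so reads of that transgene can map to the Pou5f1 locus in libraries of OG2 cells. By the labels, these do not include ESC replicate 1. For the ESCs, the labels gave a layer of mitomycin-C treated MEFs under serum medium with LIF, and the methods gave gelatin and 2i/L medium. Cell type and medium cannot be told apart here, and if feeders were present, feeder chromatin in the ESC list cannot either. By the labels, cell type and the OG2 strain cannot be told apart in replicate 1, to which the peak names point. Nothing in the labels said whether the 2 libraries of a group came from separate cultures. With 1 list per group there was no replicate to test against, so all intervals below are 95% Wilson intervals that cover counting error only.

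As background, fibroblasts and ESCs use largely separate sets of enhancers. In fibroblasts many enhancers carry the sequence bound by AP-1, dimers of FOS and JUN proteins, often together with the sequence of TEAD factors, the DNA-binding partners of YAP and TAZ. In ESCs, OCT4 (encoded by Pou5f1) and SOX2 bind side by side on an octamer next to a SOX sequence, and ESRRB, KLF factors, TFCP2L1 and NANOG share many of the same enhancers. Promoters of widely expressed genes are commonly rich in CpG and open in most cell types.

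The sequences in question are shown first. Each line is the 200 bp around the midpoint of a peak more than 1 kb from any annotated transcript start, read from GRCm38 on the plus strand, with motif matches on either strand in capitals. The ESC-only sites assigned to a gene of the naive pluripotency list and holding the octamer-SOX composite TGTNATGCA numbered 2. They lay near Prdm14, a repressor that protects naive pluripotency, and Sall1, a zinc-finger factor expressed in ESCs. The list had 111 ESC-only sites at any position. Over all distal ESC-only windows, 306 of 26021 held the composite. The windows shown are examples, and enrichment near these genes was not tested. The capitals mark the composite.
Prdm14, chr1:13084947-13085146: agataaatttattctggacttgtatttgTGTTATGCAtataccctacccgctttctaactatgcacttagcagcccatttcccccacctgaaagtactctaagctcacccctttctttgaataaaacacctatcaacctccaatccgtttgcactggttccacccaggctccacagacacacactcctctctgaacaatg
Sall1, chr8:89003694-89003893: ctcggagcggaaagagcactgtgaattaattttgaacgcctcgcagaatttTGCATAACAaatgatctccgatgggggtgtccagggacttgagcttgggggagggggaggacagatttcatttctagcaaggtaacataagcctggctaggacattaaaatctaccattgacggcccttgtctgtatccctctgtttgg

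Both of these sites were intergenic. The site near Prdm14 (chr1:13084570-13085524) lay 41639 bp from its nearest coding start and had a fold enrichment of 4.49 in the ESC list. That near Sall1 (chr8:89003345-89004242) lay 39920 bp away, with a fold enrichment of 3.25. Fold enrichment is the authors' ratio of a peak's signal over its background and describes the whole peak as called.

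Near fibroblast regulators and extracellular matrix genes, 3 of the distal MEF-only sites eligible for printing held both an AP-1 match (TGACTCA) and a TEAD match (ACATTCCA, ACATTCCT, GCATTCCA or GCATTCCT) within 200 bp. They were assigned to Col5a1 and Col3a1, which encode fibrillar collagens, and to Zeb2, a repressor of epithelial genes. The regulators had 76 and the matrix genes 135 MEF-only sites at any position. Over all distal MEF-only windows, 619 of 33492 held both motifs. These windows are examples, and enrichment near these genes was not tested. The capitals mark both motifs.
Col5a1, chr2:27810176-27810375: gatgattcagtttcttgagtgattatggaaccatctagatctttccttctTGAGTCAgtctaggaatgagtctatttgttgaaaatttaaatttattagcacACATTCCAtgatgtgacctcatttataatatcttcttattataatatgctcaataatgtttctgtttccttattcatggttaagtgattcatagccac
Zeb2, chr2:45019655-45019854: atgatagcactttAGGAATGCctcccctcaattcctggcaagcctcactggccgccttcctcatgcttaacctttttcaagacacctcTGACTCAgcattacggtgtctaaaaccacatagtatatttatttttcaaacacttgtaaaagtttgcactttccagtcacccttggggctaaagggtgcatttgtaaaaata
Col3a1, chr1:45269539-45269738: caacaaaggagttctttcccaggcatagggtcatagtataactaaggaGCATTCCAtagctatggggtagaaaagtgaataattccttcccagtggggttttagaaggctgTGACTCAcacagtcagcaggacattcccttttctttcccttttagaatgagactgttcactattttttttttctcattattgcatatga

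The site near Col5a1 was intergenic, 75723 bp from the coding start, with a fold enrichment of 3.91 in the MEF list. The Zeb2 site was intronic, 2717 bp from a coding start, at 3.50. The Col3a1 site was intergenic, 41664 bp away, at 3.36. In the Col5a1 window the matches began at base 51 for AP-1 and base 103 for TEAD, counted from the 5′ end as printed.

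Additional windows were chosen after their values were seen, to show motifs that the results below turn on. The first is the ESC-only intronic site assigned to Tfcp2l1, a naive pluripotency factor (35030 bp from its coding start, fold enrichment 3.27). It was the single eligible distal ESC-only window of the 2 pluripotency lists with a SOX match and an octamer, composite, ESRRB or KLF match, and its capitals mark an ESRRB (TCAAGGTCA) and a SOX (CCATTGT or CCTTTGT) match. The others are the 3 strongest, by the lower of both fold enrichments, of 236 shared distal sites that matched the CTCF consensus, had a coding start within 100 kb and were at most 50% repeat-masked, and their capitals mark that match. CTCF is an insulator protein that shapes chromatin loops in most cell types.
Tfcp2l1, chr1:118663218-118663417: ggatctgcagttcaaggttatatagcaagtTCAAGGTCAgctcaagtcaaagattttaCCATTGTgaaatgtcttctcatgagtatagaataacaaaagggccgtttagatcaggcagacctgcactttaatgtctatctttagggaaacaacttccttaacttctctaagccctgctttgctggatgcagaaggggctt
Ralgapa2, chr2:146414821-146415020: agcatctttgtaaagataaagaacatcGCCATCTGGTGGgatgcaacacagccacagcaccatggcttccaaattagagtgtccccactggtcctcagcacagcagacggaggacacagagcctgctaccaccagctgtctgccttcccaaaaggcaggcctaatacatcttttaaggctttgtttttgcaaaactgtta
Sfta2, chr17:35590946-35591145: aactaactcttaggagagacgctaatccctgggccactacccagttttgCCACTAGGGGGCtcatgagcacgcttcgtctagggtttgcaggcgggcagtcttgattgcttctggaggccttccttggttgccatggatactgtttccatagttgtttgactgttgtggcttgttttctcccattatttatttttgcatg
Lsm11, chr11:45926897-45927096: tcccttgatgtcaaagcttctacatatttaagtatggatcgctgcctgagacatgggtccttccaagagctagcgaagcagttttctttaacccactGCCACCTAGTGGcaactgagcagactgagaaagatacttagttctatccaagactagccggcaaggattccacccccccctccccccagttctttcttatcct

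The 3 CTCF sites had fold enrichments between 5.00 and 5.92 in MEFs and between 5.04 and 5.28 in ESCs. For the housekeeping genes, none of the 21 shared sites at a start held an ETS (CCGGAAGT) or NRF1 (GCATGCGC) match in the central window, and 3 held the SP match GGGGCGGGG. Over all shared sites at a start, the shares were 2.77% for ETS, 1.54% for NRF1 and 8.70% for SP. With so few housekeeping sites, a difference from these shares cannot be read and was not tested.

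The first question was how much of the open chromatin the 2 cell types had in common. Of MEF peaks, 33.3% (33.0% to 33.7%) overlapped an ESC peak, and 66.7% had no ESC peak at any base. Of ESC peaks, 39.1% (38.6% to 39.5%) overlapped a MEF peak, and 60.9% had none. The lists covered 46.9 Mb and 34.2 Mb, and 28.9% of the MEF base pairs and 39.6% of the ESC base pairs were also in the other list. MEF peaks were wider, with a median of 709 bp against 610 bp. The number of reads behind a list is unknown, and a deeper list can be longer and wider, so the larger number of MEF-only sites was not separated from depth. When the MEF list was trimmed by score to the size of the ESC list, the counts were 30766 MEF-only, 30659 ESC-only and 17712 shared sites.

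Few exclusive sites were near misses. In all, 1.52% of MEF-only sites came within 400 bp of an ESC peak and 3.38% within 1000 bp, and for ESC-only sites the shares were 1.957% and 4.43%. The median distance to the nearest peak of the other list was 15651 bp for MEF-only and 12276 bp for ESC-only sites. Among shared sites, 18705 (99.3%) held exactly 1 MEF and 1 ESC peak. In those, the narrower peak lay wholly within the wider one at the median site, and the MEF peak was the wider in 72.4%. Across these sites the fold enrichments of both lists had a Spearman rho of 0.49, which was 0.56 over the 12871 at a start and 0.24 over the 5834 distal ones. These are descriptions across sites, which share libraries and base composition.

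Position separated shared from exclusive sites. Shared sites lay within 1 kb of an annotated transcript start in 68.9% of cases (68.3% to 69.6%), MEF-only sites in 11.1% (10.8% to 11.4%) and ESC-only sites in 11.9% (11.5% to 12.3%). Over all sites the share was 24.0%, and 5.88% of the genome lies that close to a start. On each of the 19 autosomes, shared sites were near a start more often than both exclusive classes. The order of MEF-only and ESC-only sites depended on the definition. With starts of protein-coding transcripts only, the shares were 5.39% and 4.51%, and with peaks of a −log10 q of at least 5, 28.8% and 14.4%.

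**Figure D1:**
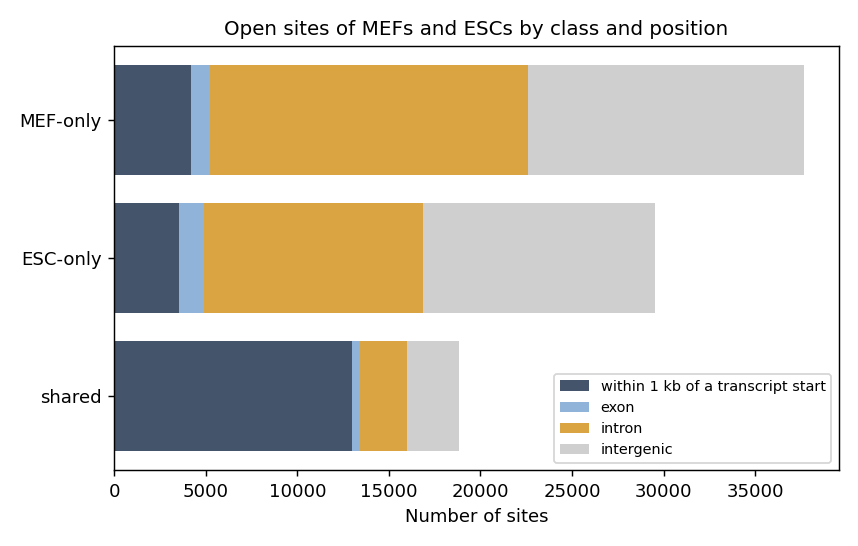
The number of sites (x axis) in each class (y axis), split by position: within 1 kb of a transcript start, and otherwise in an exon, in an intron or between genes by the site's midpoint. The start-site portion is the largest in shared sites (12982 of 18832) and small in MEF-only (4180) and ESC-only (3516) sites.

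Of all MEF-only sites, 46.0% were more than 1 kb from a start and in introns, and 40.1% that far and between genes. For ESC-only sites these shares were 40.6% and 42.9% of the class. Exons held 2.83% of MEF-only, 4.59% of ESC-only and 2.17% of shared sites. The median distance to a start was 12773 bp for MEF-only and 11077 bp for ESC-only sites, and 0 bp for shared sites, whose start lay inside the site in 64.9%. A distance over 100 kb was found for 5.27% of MEF-only, 4.53% of ESC-only and 0.57% of shared sites.

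The overlap between the cell types followed peak strength at starts, but hardly away from them. Among MEF peaks within 1 kb of a start, the share with an ESC peak climbed from 48.5% (45.8% to 51.3%) in the lowest of 10 equal groups of the list by fold enrichment to 91.1% (89.96% to 92.1%) in the highest. Among distal MEF peaks it went from 13.5% (12.6% to 14.6%) to 16.6% (15.3% to 18.04%). In the ESC list the share at starts went from 62.8% to 91.6%, and among distal peaks it was 20.1% (18.8% to 21.5%) in the lowest and 16.7% (15.3% to 18.2%) in the highest group. Over whole lists, 75.6% of MEF and 78.6% of ESC peaks at starts were shared, against 15.0% and 18.8% of distal peaks.

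**Figure D2:**
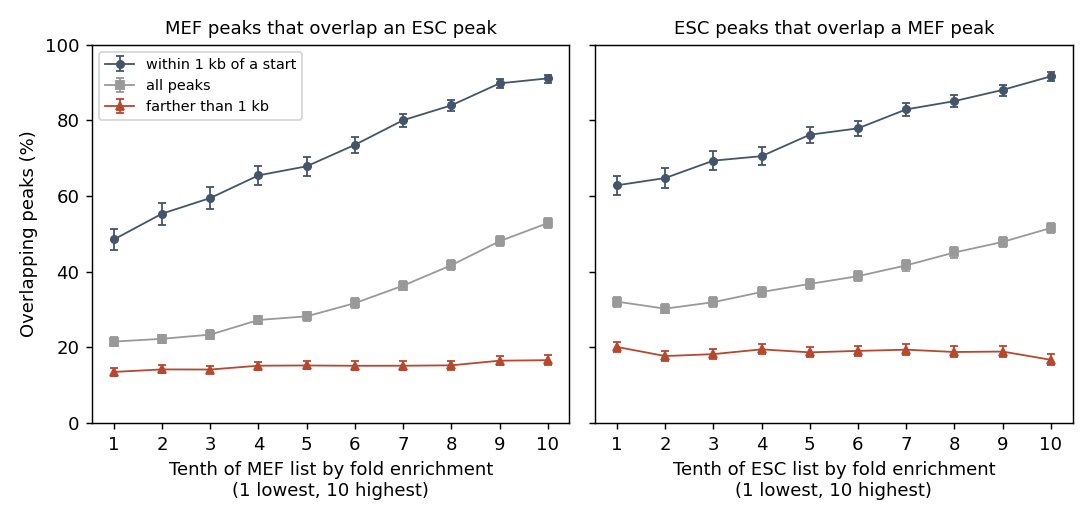
The share of peaks overlapping a peak of the other cell type (y axis, percent) by 10 equal groups of the list ranked on fold enrichment (x axis), for MEF peaks on the left and ESC peaks on the right; bars are 95% Wilson intervals. Peaks near a start go up to 91.1% and 91.6% in the highest group, whereas distal peaks stay between 13.5% and 20.1%.

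By score, which follows the −log10 q value, the lists differed at the top. Of the 1000 highest-scoring MEF peaks, 881 overlapped an ESC peak and 82.2% were near a start. Of the 1000 highest-scoring ESC peaks, 623 overlapped a MEF peak and 60.8% were near a start.

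Base composition differed by class and by position. At starts, the windows of shared sites had a mean GC content of 63.4% and an observed-to-expected CpG ratio of at least 0.6 in 70.6%. MEF-only starts had 51.3% GC, with 19.1% at that CpG ratio, and ESC-only starts 52.0% and 15.8%. Distal shared sites, at 50.4% GC and 14.6%, were close to the exclusive starts. Distal exclusive sites were poorer in GC, at 44.8% in MEF-only and 46.8% in ESC-only sites.

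Repeats set the exclusive classes apart. Sites with more than 50% of their bases repeat-masked made up 18.2% of ESC-only sites, 2.42% of MEF-only and 0.67% of shared sites. Among distal ESC-only sites the share went from 12.9% (12.0% to 13.8%) in the lowest of 5 equal groups by fold enrichment to 31.8% (30.5% to 33.1%) in the highest. In distal MEF-only sites it went the other way, from 3.49% (3.08% to 3.96%) to 1.58% (1.31% to 1.91%). The masking does not name the repeat family. The authors kept uniquely mapped reads, so repeat copies too alike to tell apart are missing from these counts. Without such sites, 43.6% of ESC peaks overlapped a MEF peak and ESC-only sites numbered 24198.

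All 19 autosomes held more MEF-only than ESC-only sites. ESC-only sites made up 43.9% of all exclusive sites, from 36.2% (33.9% to 38.4%) on chromosome 19 to 47.8% (46.3% to 49.4%) on chromosome 6. The X chromosome was the exception among the longer chromosomes, with 51.3% (48.7% to 54.0%), 662 MEF-only and 698 ESC-only sites. Its density was 3.87 MEF-only and 4.08 ESC-only sites per Mb, against 13.8 and 10.8 over the genome. The Y chromosome held 15 sites in all, 1 MEF-only, 7 ESC-only and 7 shared.

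Next, short consensus sequences were counted on both strands in the 200 bp windows of distal sites and, as background, in windows 1 kb to each side. A match describes the letters and not binding. Of the 18 motifs, AP-1 had the largest ratio between distal MEF-only and ESC-only windows. Its match was present in 24.2% of distal MEF-only windows (23.8% to 24.7%, 8108 of 33492), 8.79% of shared (8.09% to 9.54%) and 3.99% of ESC-only windows (3.76% to 4.23%). Flanks held it in 3.25%, 3.33% and 3.20%, and all distal sites in 14.8%. Matches were concentrated at the midpoint, with 76.1 per 1000 MEF-only sites in the 50 bp just after the midpoint, 8.45 in the outermost bin before it, and 10.2 per 1000 ESC-only sites at the midpoint. The AP-1 share was higher in MEF-only than in ESC-only sites on 19 of 19 autosomes. Across MEF-only sites it was 17.4% (16.5% to 18.3%) in the lowest of 5 equal groups by fold enrichment and 33.1% (32.0% to 34.3%) in the highest. MEF-only sites at starts held AP-1 in 15.6% and shared sites at starts in 1.93%.

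TEAD matches differed less between the cell types, and the order depended on repeats. They were present in 8.92% (8.62% to 9.23%) of distal MEF-only and 8.51% (8.18% to 8.86%) of distal ESC-only windows, with 3.23% and 3.24% in the flanks, so both exclusive classes were above their flanks and their intervals overlapped. Among sites at most 50% repeat-masked, the shares were 8.97% (8.66% to 9.28%) in MEF-only and 7.98% (7.62% to 8.36%) in ESC-only windows. In the sites masked beyond that they were 7.18% (5.63% to 9.11%) and 10.7% (9.85% to 11.5%). Within MEF-only sites, TEAD was present in 7.63% (7.08% to 8.23%) of windows with an AP-1 match and in 9.34% (8.98% to 9.70%) of those without. The RUNX sequence TGTGGTT, bound by a family that includes the mesenchymal regulators RUNX1 and RUNX2, was in 7.60% (7.33% to 7.89%) of MEF-only and 4.07% (3.84% to 4.32%) of ESC-only windows, with flanks at 4.83% and 5.19%. ESC-only windows were thus below their own flanks for RUNX.

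Pluripotency motifs were more frequent in ESC-only sites, at lower shares. A SOX match was found in 15.0% (14.5% to 15.4%) of distal ESC-only and 6.84% (6.57% to 7.11%) of MEF-only windows, with 7.07% and 7.11% in flanks. The octamer ATGCAAAT was in 3.32% (3.11% to 3.55%) against 1.18% (1.07% to 1.30%), with flanks at 1.35% and 1.26%. The composite of both, which overlaps the octamer and SOX letters in part, was in 1.18% (1.05% to 1.31%) of ESC-only and 0.71% (0.63% to 0.81%) of MEF-only windows, with flanks at 0.64% and 0.62%, and the ESC-only share was the higher on 18 of 19 autosomes. It is a strict consensus of 8 fixed letters, so these shares cover exact matches only. The ESRRB sequence was in 1.65% (1.501% to 1.81%) of ESC-only and 0.32% (0.26% to 0.38%) of MEF-only windows, higher in ESC-only sites on 19 of 19 autosomes. KLF sequences (CCACACCC or CCACGCCC) were in 4.32% (4.08% to 4.58%) against 2.25% (2.09% to 2.41%), and in 4.44% of shared distal windows.

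Strength ordered these motifs differently. From the lowest to the highest of 5 equal groups of distal ESC-only sites by fold enrichment, SOX matches went from 10.9% to 21.7% (20.6% to 22.9%) and the octamer from 2.36% to 4.11%. KLF matches went from 5.17% (4.599% to 5.80%) to 3.25% (2.80% to 3.76%), and ESRRB was 1.67% and 1.65%. Repeat-masked sites differed here. SOX matches were in 22.3% of the 5130 distal ESC-only sites over 50% repeat-masked and in 13.2% (12.7% to 13.6%) of the other 20891, and both values were above flanks at 7.64% and 6.93%. The octamer was also more frequent in the masked sites, at 4.56% (4.02% to 5.17%) against 3.02% (2.79% to 3.26%). The composite, ESRRB and KLF were less frequent there, at 0.47%, 1.23% and 3.47% against 1.35%, 1.75% and 4.53% in the other sites.

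**Figure D3:**
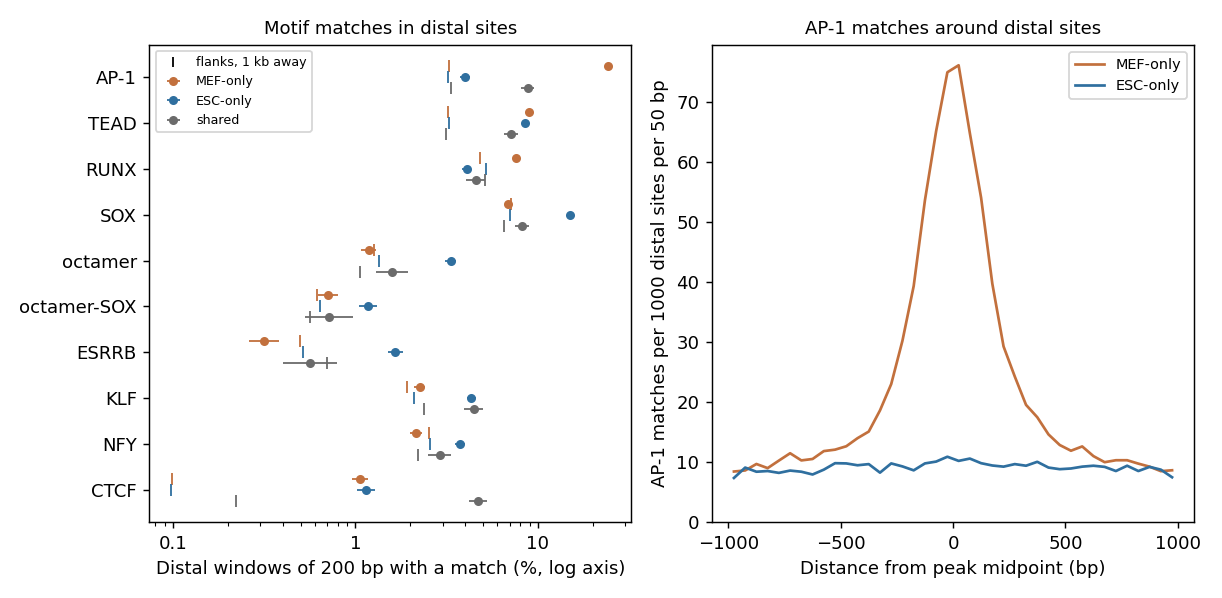
Left, the share of distal 200 bp windows with a match (x axis, percent, log axis) for 10 motifs, with 95% Wilson intervals, and the flanks as vertical ticks in the same colours. Right, AP-1 matches per 1000 distal sites per 50 bp (y axis) by distance from the midpoint (x axis, bp), where MEF-only sites peak at 76.1 and ESC-only sites have 10.2 at the same place.

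In shared sites, other motifs were counted as well. CTCF was found in 4.70% (4.19% to 5.27%) of distal shared windows, against 1.06% (0.96% to 1.18%) of MEF-only and 1.14% (1.02% to 1.27%) of ESC-only windows, with 0.22%, 0.10% and 0.10% in flanks. Shared sites at starts held the SP match in 8.70% (8.22% to 9.19%), ETS in 2.77% (2.497% to 3.06%), YY1 (AAGATGGC) in 2.15% (1.91% to 2.41%) and NRF1 in 1.54% (1.34% to 1.77%), all motifs common in promoters of widely expressed genes. In MEF-only starts these were 2.99%, 0.55%, 0.84% and 0.69%, and in ESC-only starts 2.73%, 0.65%, 1.34% and 0.40%, each with an interval below that of shared starts. NFY (CCAATCA or CCAATCG) was in 5.05% (4.68% to 5.44%) of shared and 4.55% (3.91% to 5.29%) of ESC-only starts, whose intervals overlapped, and in 2.37% (1.949% to 2.88%) of MEF-only starts. Matches to STAT (TTCCNGGAA), C/EBP (TTGCGCAA or TTGCACAA) and PRDM14 (GGTCTCTAA) had overlapping intervals in distal MEF-only and ESC-only windows. The TFCP2L1 consensus was in 2.77% (2.58% to 2.98%) of distal ESC-only, 3.21% of shared and 2.09% (1.95% to 2.25%) of MEF-only windows.

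Start sites were then read gene by gene. A start counted as open in a cell type when a peak of its list came within 1 kb of the start of any coding transcript of the gene. Of 21853 protein-coding genes, 12499 (57.2%) were open in both cell types, 1376 (6.30%) in MEFs only, 815 (3.73%) in ESCs only and 7163 in neither. These shares are the background for the lists below. They moved with the peaks used: with a −log10 q of at least 5, 4094 genes were open in MEFs only and 588 in ESCs only, and with lists of equal size 1217 and 1020. The distal surroundings followed the start only in part. Genes open in MEFs only had at least 1 distal MEF-only site in 52.1% (49.5% to 54.7%) and a distal ESC-only site in 40.2% (37.6% to 42.8%), whereas genes open in ESCs only had them in 46.3% (42.9% to 49.7%) and 47.7% (44.3% to 51.2%). Genes open in both had them in 51.2% and 49.6%.

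Labels were checked against markers. Of 10 fibroblast markers, 4 were open at the start in MEFs only (Prrx1, Col3a1, Pdgfrb and Thy1), 6 in both and none in ESCs only. Prrx1 was counted so by the 1 kb rule, although a shared site lay over its start, with the ESC peak farther off. Of 9 pluripotency markers, 4 were open in ESCs only (Pou5f1, Nanog, Zfp42 and Dppa5a), 5 in both and none in MEFs only. The lists thus followed their labels. Among markers of other cell types, none of 3 keratinocyte markers was open in either list. Of 5 blood markers only Csf1r was open, in MEFs, and of 5 endothelial markers Kdr and Tek, in both. The 4 neural markers were open in both apart from Sox1 (ESCs only), the 4 trophoblast markers were split between both (Eomes, Tfap2a) and ESCs only (Cdx2, Elf5), and of 4 primitive endoderm markers Sox7 was open in MEFs only, Sox17 in ESCs only and Gata4 and Gata6 in both. Of the muscle markers, Myf5 was open in ESCs only and Myod1 and Myog in neither. An open start is not a sign of expression, since promoters of developmental regulators can be open while silent.

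For the surroundings, each site was given to the protein-coding gene with the nearest start, up to 100 kb away, which placed 79.0% of sites. By this count 24.9% of genes had more ESC-only than MEF-only sites and 30.0% the reverse. The same genes were often involved: 10437 genes had a MEF-only site, 10292 an ESC-only site and 6755 both.

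The naive pluripotency factors were surrounded by ESC-only sites. Of the 18 genes, 17 had more ESC-only than MEF-only sites and none the reverse, with 111 ESC-only, 27 MEF-only and 26 shared sites. All 18 had an open start in ESCs, and 13 of them also in MEFs. Esrrb, which encodes an orphan nuclear receptor, and Klf5, a Krüppel-like factor, had 12 ESC-only sites each, against 2 and 1 MEF-only sites, and both were open at a start in both cell types. Prdm14 had 8 against 2, Nr5a2 (an orphan nuclear receptor that can activate Pou5f1) 9 against 2, and Sall1 8 against 0. Zfp42, also called Rex1 and a marker of the naive state, had 6 ESC-only sites and no other. They included its start (chr8:43305536-43307482, fold enrichment 3.32) and a site 13716 bp away with a fold enrichment of 7.35 (chr8:43320696-43321425). Around Sox2, the HMG-box partner of OCT4, the start itself was shared (chr3:34649123-34651317), and so was a site 13621 bp from it, with 6 ESC-only sites around them. Within the 100 kb limit of the count, the farthest ESC-only site lay 94356 bp away (chr3:34744761-34745952, fold enrichment 3.76), beside a MEF-only site at 93166 bp (chr3:34743571-34743973, fold enrichment 3.76). Sites beyond that limit were not counted.

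Other core factors differed in the balance of classes. Nanog had an ESC-only start (chr6:122707158-122707529, fold enrichment 2.64) with 1 more ESC-only site, but 3 shared sites, whose fold enrichments were 4.11, 5.78 and 4.66 in MEFs and 2.56, 2.70 and 3.52 in ESCs. Fold enrichments of different lists are not on a common scale. Klf4, one of the reprogramming factors, had 6 ESC-only, 3 MEF-only and 2 shared sites, its start among the shared ones, and Tbx3 had 6, 4 and 1. Pou5f1 had an ESC-only site of 3.41 kb next to its start (chr17:35502571-35505981, fold enrichment 3.07), 2 more ESC-only sites and a MEF-only site 4381 bp from the coding start (chr17:35500687-35501637, fold enrichment 1.69). The OG2 transgene holds Pou5f1 sequence, and its part in this MEF-only site was not tested. Gbx2 was the gene of the list with equal numbers, 3 and 3.

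Broader pluripotency markers followed the same side with smaller counts. Of 19 genes, 11 had more ESC-only and 2 more MEF-only sites, with 46 ESC-only against 11 MEF-only sites in all. Open starts in ESCs only were found for 6, the germ-cell and ESC genes Dppa2, Dppa4 and Dppa5a, Tdh (threonine dehydrogenase), Lefty1 (a Nodal antagonist) and Dnmt3l (a cofactor of de novo DNA methylation). Tet2, which oxidizes methylcytosine, had 11 ESC-only and 1 MEF-only site, with a start open in both. Starts of Dppa3, Lin28a and Lefty2 had no peak in either list.

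Epithelial genes, whose expression was not measured here, were less one-sided. Of 18 genes, 8 had more ESC-only and 5 more MEF-only sites, with 21 against 13 sites. When any site within 50 kb of a start was counted, these were 47 and 44. Cdh1 (E-cadherin), Cldn7 and Krt18 had a start open in ESCs only, and Ovol1 and Krt8 in MEFs only. The Krt8 call rested on the 1 kb window. A MEF-only site lay 515 bp from its coding start and an ESC-only site 1128 bp from it. Krt8 and Krt18 are neighbours that encode partner keratins, and each had 2 MEF-only and 2 ESC-only sites. Dsp, which encodes desmoplakin, had 5 ESC-only and no MEF-only sites. A start open in both was found for 11 of these genes, Epcam, Ocln and Grhl2 among them.

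Fibroblast regulators leaned to MEF-only sites away from their starts. Of 18 genes, 13 had more MEF-only and 4 more ESC-only sites, with 76 against 30 sites, yet 16 had a start open in both cell types. Runx1 had 17 MEF-only sites against 4 ESC-only, the most of the list. Prrx1, a homeobox gene of limb and craniofacial mesenchyme, had 9 against 0, with a shared site over its start (chr1:163311940-163314507), of which the ESC peak lay more than 1 kb from any coding start. Twist2 had 8 against 1, Runx2 8 against 0 and Zeb1 6 against 0. Foxf2 and Osr2 went the other way, with 6 ESC-only against 2 MEF-only and 4 against 1 sites. Snai2, a Snail-family repressor, had a single ESC-only and no MEF-only site.

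Extracellular matrix genes had the lowest share of ESC-only sites among their exclusive sites of the lists counted, 16.7%. Of 24 genes, 21 had more MEF-only and 1 (Fn1) more ESC-only sites, with 135 against 27 sites. Starts were open in MEFs only for 9, Col3a1, Col6a1, Col6a2, Col6a3, Postn, Dcn, Mmp2, Bgn and Eln, in both for 14 and in ESCs only for none. Col5a1 had 16 MEF-only and no ESC-only sites, 11 of them upstream of its shared start between 11262 bp and 83438 bp away. Col1a1, which encodes the main chain of type I collagen, had 6 against 0, and its start was shared (chr11:94936173-94937630) with fold enrichments of 2.33 in MEFs and 3.96 in ESCs. The adhesion protein genes Thbs2 and Tnc had 11 MEF-only sites each against 1 and 2. Fn1, which encodes fibronectin, had 5 ESC-only and 3 MEF-only sites.

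Surface, cytoskeletal and contractile genes were like the matrix genes. Of 12 mesenchymal markers, 11 had more MEF-only sites, and 6 had a start open in MEFs only, including Thy1, Cd44 and Fap. Cd44, the hyaluronan receptor, had 14 MEF-only against 2 ESC-only sites, of which an intronic ESC-only site had a fold enrichment of 5.20 in the ESC list (chr2:102888583-102889368). A MEF-only interval among them was only 7 bp wide. Pdgfra was the exception, with 3 ESC-only and 0 MEF-only sites. Of 14 contractile genes, 11 had more MEF-only sites, with 48 against 17. The smooth muscle genes Acta2, Tagln, Cnn1 and Tpm2 and the adaptor Tgfb1i1 were open at the start in MEFs only, and Acta2 had a fold enrichment of 3.82 there (chr19:34254459-34256044).

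**Figure D4:**
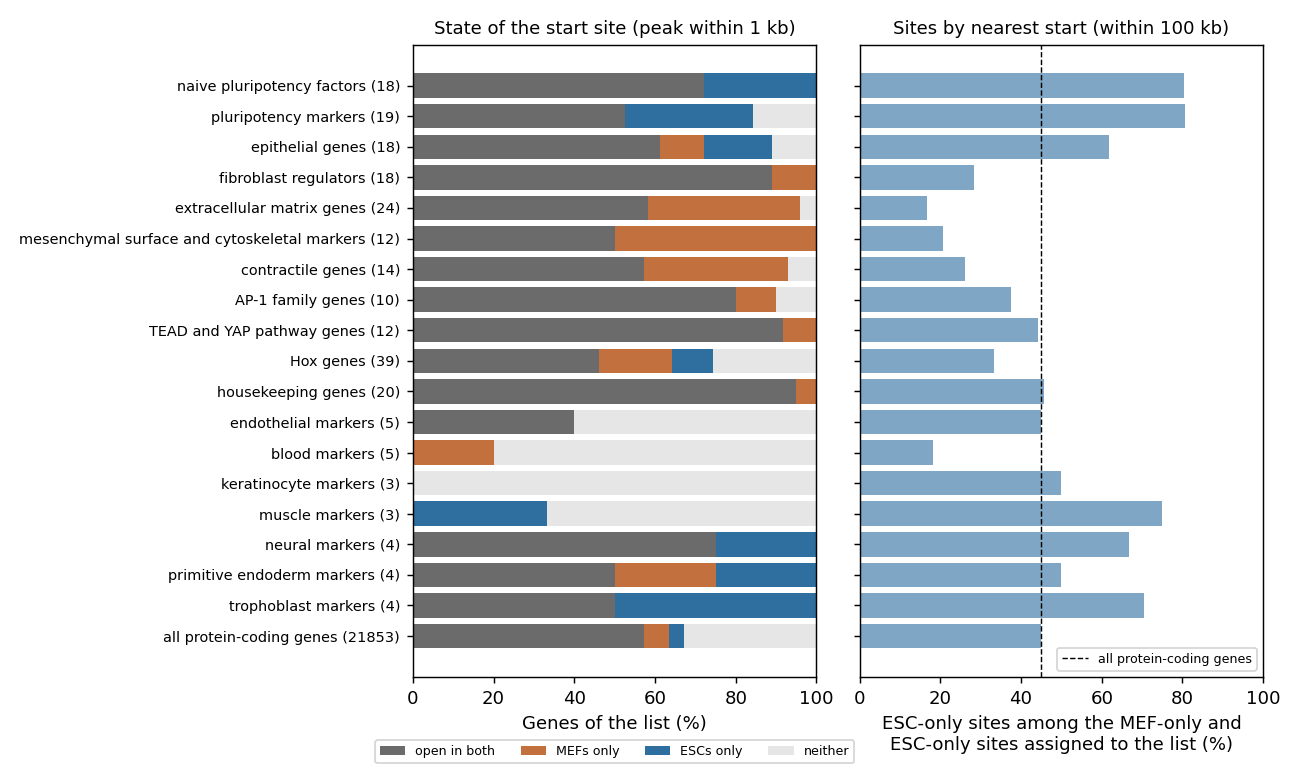
Left, the percentage of the genes of each list (number of genes in brackets) whose start was open in both cell types, in one or in neither. Right, ESC-only sites as a percentage of the MEF-only and ESC-only sites assigned to the list, with all protein-coding genes at 44.9% as a dashed line, where the pluripotency lists stand at 80.4% and 80.7% and the matrix genes at 16.7%.

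Genes of the factors whose motifs were counted were mostly open in both. Of 10 AP-1 family genes, 8 had such a start, Junb was open in MEFs only and Batf in neither. The single site assigned to Junb was nevertheless a shared one. Fosl2 had 8 MEF-only against 2 ESC-only sites and Jun 6 against 4, with 25 against 15 for the list. In the TEAD and YAP pathway list, 11 of 12 starts were open in both, Ankrd1 in MEFs only, and the sites were divided 48 to 38. Tead1 had 14 MEF-only against 7 ESC-only sites, while Yap1 had 4 against 8.

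The Hox clusters, which set positional identity, differed among themselves. Between the outer ends of its genes, the Hoxa cluster (chr6:52155590-52260880) held 9 MEF-only, 1 ESC-only and 6 shared sites, and the Hoxb cluster (chr11:96194316-96368256) 8, 1 and 4. The Hoxc cluster (chr15:102921103-103036852) held 2, 3 and 9, and the Hoxd cluster (chr2:74668310-74765142) 5, 3 and 7. The 7 Hox genes with a start open in MEFs only were all in the first 2 clusters. Housekeeping genes served as a comparison: 19 of 20 were open in both, and their exclusive sites were divided 19 to 16.

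Without regard to lists, the genes with the most MEF-only sites were Pde4d (32), Foxp1 (26), Rbms3, Rbfox1 and Ank3 (21 each), Col4a1, Dlc1 and Auts2 (20 each), and Tns1 and Kalrn (19 each). Many of them are long, such as Pde4d, a phosphodiesterase gene of 1504 kb, and long genes can gather more sites. Col4a1, which encodes basement membrane collagen, spans 114 kb and had 20 MEF-only against 2 ESC-only sites, and Rbms3 had 21 against 2. The genes with the most ESC-only sites were Etl4 and Tenm4 (23 each), Plcb4 (22), Pde4d (20), Tiam1 (19), Myo10 (18), Zfp704 (17), Cntnap2 and Tspan5 (16 each) and Tbl1xr1 (15). Tiam1, a Rac exchange factor, had 19 ESC-only against 4 MEF-only sites, and Tbl1xr1 15 against 3. Pde4d was among the top 10 of both.

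Sites of one class also came in runs, defined by a fixed limit on the gap to the next site of their class. The widest gap joined between ESC-only sites was 12499 bp. Runs of 5 or more sites held 4.00% of MEF-only sites (264 runs) and 1.91% of ESC-only sites (102 runs). MEF-only sites were also denser, at 13.8 against 10.8 per Mb, and the part of density in this difference was not tested. The run with the most sites held 14 MEF-only sites over 97.1 kb next to Col4a1 (chr8:11322815-11419907), with no ESC-only or shared site inside. It was followed by 12 sites near Hmga2 and Msrb3 (chr10:120616257-120702194), of which Hmga2 encodes a chromatin protein of embryonic mesenchyme. Then came 11 each near Ece1 and Eif4g3 (chr4:137888329-137968624), Palld (chr8:61584990-61652473), which encodes an actin-binding protein, and Apbb2 (chr5:66524385-66586852). The ESC-only runs with the most sites were 9 near Clybl (chr14:122255390-122300574), 8 near Pnpla6 (chr8:3535842-3580035), and 8 around Foxd3 (chr4:99635734-99675487), a forkhead factor required in pluripotent cells, with no other site inside that run. The next ones, of 7 sites each, lay over the protocadherin alpha genes (chr18:36930100-36975350) and near Mbp (chr18:82504056-82559680). Sites of the opposite exclusive class lay inside some of these runs, 3 each for Apbb2 and Mbp and 1 each for Hmga2, Palld and Clybl. The runs near Ece1, Pnpla6 and the protocadherin alpha genes held none.

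**Figure D5:**
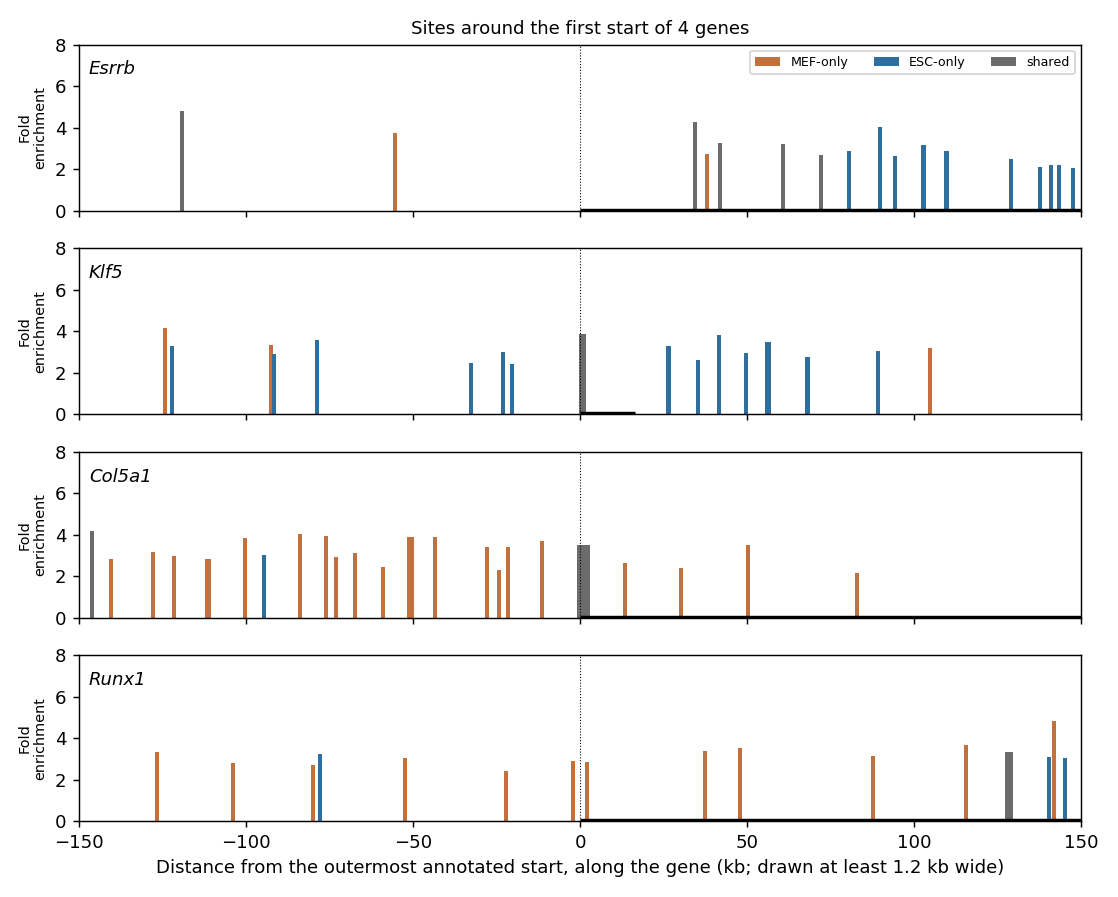
Sites around Esrrb, Klf5, Col5a1 and Runx1, chosen as the genes with the most ESC-only sites of the naive list (2 genes) and the most MEF-only sites of the matrix and regulator lists. The x axis gives the distance in kb from the outermost annotated start along the gene, the y axis the fold enrichment (the larger of both lists for shared sites), and the black bar the gene; most sites around Esrrb and Klf5 are ESC-only and most around Col5a1 and Runx1 MEF-only.

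The strongest exclusive sites were single ones. After sites over 50% repeat-masked were left out, the highest fold enrichment of a MEF-only site was 8.80, in an intergenic site 20473 bp from the start of Krt23 (chr11:99472002-99472664). The highest of an ESC-only site was 8.67, in an intron 76161 bp from the nearest coding start, that of Pls3 (chrX:75750431-75750792). The highest shared site reached 15.3 in MEFs and 17.99 in ESCs over 408 bp, in an exon 16509 bp from the nearest coding start, that of Limd1 (chr9:123461790-123462197).

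Finally, 6 microRNA clusters, chosen after the lists had been seen, were read within 25 kb of their hairpins. The miR-290 to miR-295 cluster (chr7:3218626-3220841 for the 8 hairpins matched) and the miR-302 and miR-367 cluster (chr3:127545228-127545807) are the best known ESC microRNAs. The first had 4 ESC-only, 1 shared and no MEF-only site, and the second 2 ESC-only, 1 shared and no MEF-only site, one of the ESC-only sites covering hairpins (chr3:127544434-127545477, fold enrichment 4.08). Of their 26 mature products matched in RefSeq, 5 have the seed AAGUGCU, the most frequent one, and they are shown with the seed (bases 2 to 8) in capitals. The next were CUCAAAC and CUUUAAC with 3 products each.
mmu-miR-291a-3p: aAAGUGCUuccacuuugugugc
mmu-miR-294-3p: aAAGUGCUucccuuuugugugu
mmu-miR-295-3p: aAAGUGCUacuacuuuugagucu
mmu-miR-302b-3p: uAAGUGCUuccauguuuuaguag
mmu-miR-302d-3p: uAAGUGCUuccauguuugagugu

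The clusters known from mesenchymal cells had the reverse makeup. Around miR-199a and miR-214 (chr1:162217814-162223477) there were 6 MEF-only and 1 ESC-only site, and a MEF-only site overlapped the hairpins (chr1:162216054-162218066, fold enrichment 3.11). Around miR-21a (chr11:86584067-86584158) there were 6 MEF-only, no ESC-only and 2 shared sites. Around miR-221 and miR-222 (chrX:19146294-19146971) there were 3 MEF-only sites and no other. Their mature forms have seeds that differ from that of the ESC clusters, and miR-221 and miR-222 share theirs.
mmu-miR-199a-3p: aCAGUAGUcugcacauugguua
mmu-miR-214-3p: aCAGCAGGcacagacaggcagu
mmu-miR-21a-5p: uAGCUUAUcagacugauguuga
mmu-miR-221-3p: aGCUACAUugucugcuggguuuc
mmu-miR-222-3p: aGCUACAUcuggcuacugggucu

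The miR-17 to miR-92a cluster, a growth-associated cluster active in many cells, had 2 shared, 1 MEF-only and no ESC-only site. Its miR-17-5p and miR-20a-5p carry the seed AAAGUGC, shifted by 1 base from that of the ESC clusters.
mmu-miR-17-5p: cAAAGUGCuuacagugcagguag
mmu-miR-20a-5p: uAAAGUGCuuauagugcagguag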

How the data were processed

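The authors mapped the ATAC-seq reads to mm10 with bowtie2 (version 2.2.0 per the submitters' processing notes) and kept uniquely mapped, non-mitochondrial reads of sufficient mapping quality. The labels and the methods differ in the quality limit and in the aligner version. The peak caller is not given in the sources used here. A single headerless list per group was deposited, laid out as broad peaks. By that layout, its columns were read as a score, a fold over background, and −log10 values of p and q. Every peak name pointed to replicate 1 and both lists carried the word intersect, so an interval is probably that portion of a replicate 1 peak which replicate 2 also had. No source states it. If so, the score, fold and −log10 q, and the strength groups and q limit built on them, describe replicate 1 alone. At most 83.0% of the numbered MEF and 75.5% of the numbered ESC peaks were listed. Intervals under 50 bp, 141 in the MEF and 156 in the ESC list, were kept and counted like the others. The deposited score, fold and −log10 q only ranked, filtered or described peaks inside a list, and the p-values were not used. Depth is unknown. Columns from other series numbered 0.

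Overlaps, sites and motif counts were computed in Python 3.11.15 with numpy 2.4.6 and scipy 1.17.1, after the functions had been tested on simulated intervals and sequences. GENCODE release 21 for mouse supplied the 132629 distinct starts of 141730 transcripts and the exons and introns of all gene types. Windows were centred on the midpoint of the widest peak of a site. Repeat masking was read from the lower-case bases of the GRCm38 sequence, and mature microRNAs from RefSeq (GRCm38). All 232 entries of the 18 gene lists matched. Named genes were members of these lists, the 10 genes with the most sites of each exclusive class, the 5 runs with the most sites of each exclusive class and the strongest site per class. Fewer than 3 sequences are shown where fewer met the rule, and counts of sites eligible for printing leave out chromosome 18, with no gene of the naive list and Zeb1, Lox and Fbxo15 of the others. The members and lists were chosen with earlier results of these data known. No test was run, because each group had 1 list.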

Additional observations from a re-analysis of the deposited data

How the results depend on the processing

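No paired analysis was possible because each group had 1 list, and leaving out a replicate could not be run for the same reason. Of 108 values under 15 alternative settings, 59 stayed within their interval or within 1.5 times and 49 moved. Those that stayed include the gene counts under the 50% overlap and 400 bp settings. These could not move, because the state of a start does not use the overlap rule. The order of MEF-only and ESC-only sites by near-start share changed with coding starts only and with the stricter q limit. The number of reads behind each list is unknown and limits what the site numbers can show. The cause of each move was not tested beyond what the setting itself changes.

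With peaks of a −log10 q of at least 5 there were 18668 MEF-only, 9901 ESC-only and 8058 shared sites, overlaps of 30.2% of MEF and 44.9% of ESC peaks, near-start shares of 28.8%, 14.4% and 87.3%, AP-1 in 28.6% of distal MEF-only and the composite in 1.38% of distal ESC-only sites, and 4094 genes open in MEFs only against 588 in ESCs only. With at least 50% overlap of both peaks, 23.0% of MEF and 26.8% of ESC peaks were shared, 16.8%, 18.8% and 75.4% of MEF-only, ESC-only and shared sites were near a start, and AP-1 was in 23.3%. With lists of equal size, 36.5% of MEF and 36.8% of ESC peaks overlapped, 12.6% of ESC-only and 71.3% of shared sites were near a start, and AP-1 was in 25.8%. With peaks within 400 bp counted as shared, the overlaps were 34.4% and 40.3%, and 67.6% of shared sites were near a start. Without mostly repeat-masked peaks, 43.6% of ESC peaks overlapped, 13.5% of ESC-only sites were near a start and the composite was in 1.35%.

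With coding starts only, 5.39%, 4.51% and 62.6% of MEF-only, ESC-only and shared sites were near a start, and with 5 kb these were 27.6%, 30.0% and 76.9%. AP-1 was in 13.2% and the composite in 0.56% within 100 bp, and in 47.5% and 2.81% over the whole peak. With sites assigned up to 20 kb, MEF-only and ESC-only sites numbered 6 and 44 for naive factors, 24 and 12 for fibroblast regulators, 49 and 10 for matrix genes and 23 and 8 for contractile genes, and 7 MEF-only sites remained for epithelial genes. With any site within 50 kb, epithelial genes had 44 MEF-only and 47 ESC-only sites.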
